A study of Mus musculus with 30 samples.

Results

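Immediate early genes are transcribed within minutes of a stimulus from factors that are already present in the cell, and no new protein has to be made first. In neurons, calcium entry and kinase signalling act on the factors CREB and SRF at their promoters, and light given in the subjective night is known for raising several of these genes in the suprachiasmatic nucleus of the hypothalamus and in the retina. Most of them encode transcription factors that pass the signal to slower target genes, and their transcripts are short-lived. The 10 genes described here were taken by name, with earlier results of these data known. Among them are the AP-1 subunits Fos, Fosb, Jun and Junb and the zinc finger factors Egr1, Egr2 and Egr3. The others are the orphan nuclear receptor Nr4a1, the bHLH-PAS factor Npas4 and the synaptic effector Arc. Together these genes are 10 of 28146 gene names on the array and carry 12 of its 41174 probes, since Junb and Egr3 each have 2.

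Hypothalamic blocks, cut around the optic chiasm so as to hold the suprachiasmatic nucleus, came from 8 WT and 8 Per3-/- mice, and whole eyes from 7 mice of each genotype. All were adult males on a C57Bl/6J background, the WT mice being littermates of the constitutive Per3 knockouts, and every mouse had lived alone with a running wheel through ultradian cycles of 3.5 h light and 3.5 h darkness. They were killed in the second hour of the light phase of cycle 17, at the middle of the former active phase. Both tissues came from 14 of the 16 mice. An eye and a hypothalamus were taken as 1 mouse where genotype and replicate number matched. The sample titles do not state that these numbers identify mice. With 1 sampling time and no group kept in darkness, the values are levels under light and hold no response to it.

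The 75th percentile of probe intensity, to which every value below is relative on the log2 scale, was 1408 to 2207 on the 16 hypothalamus arrays and 1131 to 1644 on the 14 eye arrays, and 68.0 to 75.6% and 71.4 to 80.7% of probes were well above background. In every hypothalamus 15 of 17 hypothalamic markers were well above background. In every eye 13 of 14 markers of retina, 10 of 10 of lens, 9 of 9 of pigment epithelium, 9 of 9 of the ocular surface and 9 of 10 of skeletal muscle were. That call alone does not tell tissues apart, since 10 of 17 hypothalamic markers also passed in every eye and 10 of 12 cortical markers in every hypothalamus. Summed linear levels did separate the labelled tissues. Hypothalamic markers summed to 150 to 590 times the 75th percentile in the hypothalamus and 3.77 to 6.75 times in the eye. Retinal markers summed to 0.59 to 0.82 times in the hypothalamus and 388 to 492 times in the eye. The Per3 probe was lower in Per3-/- mice by 0.51 ± 0.089 (SE) in the hypothalamus, with an adjusted p of 0.067 in limma, and by 0.45 ± 0.23 in the eye, with an adjusted p of 1.0. Where it lies relative to the disrupted part of the gene is not given in the sources used here. The hypothalamus of Per3-/- mouse 1 stood apart in its pituitary markers, whose summed linear level was 881 times the 75th percentile against 54.4 to 98.2 times in WT mice. The hypothalamus of Per3-/- mouse 7 stood apart in the genes described here, and results that rest on it are given with and without that mouse.

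The reported probes, each 60 bases long in the array files' assembly mm9, lie at chr12:86817900-86817959 for Fos, chr7:19888477-19888536 for Fosb, chr4:94715864-94715923 for Jun and chr8:87500881-87500940 for Junb. Those of Egr2, Egr3, Nr4a1 and Npas4 lie at chr10:67004758-67004817 for Egr2, chr14:70481979-70482038 for Egr3, chr15:101105071-101105130 for Nr4a1 and chr19:4984833-4984892 for Npas4. The position of the Egr1 probe is given with its levels. The Arc probe lies at chr15:74499597-74499656. The array files do not say in which exon or UTR a probe falls. All 10 and the second Junb probe were well above background and unsaturated on all 30 arrays, whereas the second Egr3 probe was so on 6.

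The 250 bases before the transcription start (RefSeq, GRCm38.p6) are shown because most of these genes carry there the letters TGACG, the core of the element bound by CREB, given in capitals on whichever strand they read. RefSeq windows were matched for 7 of the 10 genes (Fos, Fosb, Jun, Junb, Egr2, Nr4a1 and Npas4), with 5 overlapping or alternative windows for Egr2 and 1 for each of the others. For the 4 genes with repeated matches within a window, 1 window each is shown first. They are Fos at chr12:85473640-85473889 and Egr2 at chr10:67537619-67537868, both on the + strand. Nr4a1 at chr15:101266596-101266845 on the + strand and Npas4 at chr19:4989972-4990221 on the - strand come next. Jun at chr4:95052223-95052472 on the - strand, which had none, is last.
Fos: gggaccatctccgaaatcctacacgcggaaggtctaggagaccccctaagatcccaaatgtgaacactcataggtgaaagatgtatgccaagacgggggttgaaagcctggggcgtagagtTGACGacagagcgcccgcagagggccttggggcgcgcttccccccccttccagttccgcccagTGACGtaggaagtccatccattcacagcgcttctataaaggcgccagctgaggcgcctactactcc
Egr2: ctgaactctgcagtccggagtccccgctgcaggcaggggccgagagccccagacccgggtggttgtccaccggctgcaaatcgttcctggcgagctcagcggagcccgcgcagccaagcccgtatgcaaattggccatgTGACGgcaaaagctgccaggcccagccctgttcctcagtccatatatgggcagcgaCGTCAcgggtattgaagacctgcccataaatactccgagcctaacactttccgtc
Nr4a1: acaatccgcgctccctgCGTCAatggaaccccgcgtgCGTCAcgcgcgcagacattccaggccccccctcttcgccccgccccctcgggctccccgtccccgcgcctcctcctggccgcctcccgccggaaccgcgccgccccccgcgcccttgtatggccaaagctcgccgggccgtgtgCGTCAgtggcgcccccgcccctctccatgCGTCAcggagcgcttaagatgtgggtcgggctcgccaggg
Npas4: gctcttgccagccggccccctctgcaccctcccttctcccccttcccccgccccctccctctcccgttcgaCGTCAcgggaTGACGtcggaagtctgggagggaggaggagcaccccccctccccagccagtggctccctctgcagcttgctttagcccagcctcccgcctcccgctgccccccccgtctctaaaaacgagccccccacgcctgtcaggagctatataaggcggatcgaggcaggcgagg
Jun: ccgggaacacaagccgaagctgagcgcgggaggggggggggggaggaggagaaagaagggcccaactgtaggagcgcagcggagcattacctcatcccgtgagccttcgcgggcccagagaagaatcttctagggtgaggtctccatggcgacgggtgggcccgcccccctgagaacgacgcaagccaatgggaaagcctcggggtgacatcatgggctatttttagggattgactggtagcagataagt

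TGACG was found in 6 of the 7 genes and in 8 of their 11 windows, against 17.8% of all 32851 windows of the same length. In Fos the first bases of the matches lay 66 and 129 bases before the start, in Nr4a1 40, 69, 213 and 233, in Npas4 169 and 179, and in the Egr2 window shown 55 and 111. Fosb had 1 match at 60 and Junb 1 at 106. The full palindrome TGACGTCA, which contains TGACG, was in none of the 11 windows and in 1.55% of all. The CArG box, the element bound by SRF, was in 4 of the 5 Egr2 windows, in no window of the other 6 genes and in 1.47% of all, and TATAAA, searched on both strands, was in the Fos window 33 bases before the start and in 12.4% of all. A match is a run of letters and not a measured binding site.

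Levels differed most between the tissues for Junb and Arc. Junb, an AP-1 subunit that pairs with Fos proteins, was 4.04-fold higher in the eye, and Arc, a postsynaptic protein that takes glutamate receptors out of the membrane, was 6.38-fold higher in the hypothalamus. Egr3 was 3.37-fold higher in the hypothalamus, a size that moved with the scaling. Nr4a1, Egr2, Fosb and Fos were higher in the eye by 1.30-fold to 1.48-fold and Jun was higher in the hypothalamus by 1.26-fold, while Egr1 and Npas4 did not pass the test. Of the 12 probes 9 were called in this comparison (limma, mouse taken as a random block, Benjamini-Hochberg adjusted p under 0.05), beside 83.1% of all probes, so the count of calls does not set these genes apart from the array. Of the 10 genes, on their reported probes, 5 were called higher in the eye and 3 in the hypothalamus, beside 47.9% and 35.2% of all probes. After quantile normalization they were 3 and 4, beside 37.8% and 43.7%.

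Fos pairs with Jun proteins to form AP-1 and is the most used marker of recent neuronal activity. Its level in the hypothalamus ran from -1.35 to -0.34 in WT mice (median -1.14, n = 8) and from -1.31 to -0.27 in Per3-/- mice (median -0.93, n = 8). In the eye it ran from -0.75 to -0.24 in WT mice (median -0.49, n = 7) and from -1.25 to -0.25 in Per3-/- mice (median -0.51, n = 7). Most eye values lay in the upper part of the hypothalamic range and the tissues overlapped, with the eye higher in 11 of the 14 mice that gave both. The difference of eye minus hypothalamus was 0.38 ± 0.12 (SE, adjusted p = 0.0041).

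Fosb, the longer-acting relative of Fos, ran in the hypothalamus from -4.36 to -3.72 in WT mice (median -4.02) and from -4.27 to -2.87 in Per3-/- mice (median -4.06). In the eye it ran from -4.07 to -2.74 in WT mice (median -3.62) and from -4.18 to -2.58 in Per3-/- mice (median -3.32). Both genotypes of the eye spread over most of the combined range, and 12 of 14 mice were higher in the eye. The difference was 0.50 ± 0.16 (adjusted p = 0.0066) but -0.05 after quantile normalization (adjusted p = 0.80), so its direction depends on the scaling.

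Jun and Junb are the Jun family subunits of AP-1, with which Fos proteins pair. Jun ran in the hypothalamus from 0.18 to 0.67 in WT mice (median 0.57) and from 0.36 to 0.68 in Per3-/- mice (median 0.56), and in the eye from -0.16 to 0.50 in WT mice (median 0.21) and from -0.08 to 0.44 in Per3-/- mice (median 0.23). Its range was the narrowest of the 10 genes in the hypothalamus, and the eye was lower in 12 of 14 mice, by 0.33 ± 0.061 (adjusted p = 1.6e-05). Junb ran in the hypothalamus from 1.62 to 2.19 in WT mice (median 1.86) and from 1.54 to 2.74 in Per3-/- mice (median 1.93), and in the eye from 3.62 to 4.21 in WT mice (median 3.98) and from 3.63 to 4.30 in Per3-/- mice (median 3.86). The tissues did not overlap and all 14 mice were higher in the eye, with a difference of 2.01 ± 0.097 (adjusted p = 7.1e-18) and of 2.45 ± 0.091 on the second Junb probe.

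Egr1, Egr2 and Egr3 are zinc finger factors that bind the same GC-rich element. The Egr1 probe lies at chr18:35024395-35024454 of mm9. Egr1 ran in the hypothalamus from 0.93 to 1.59 in WT mice (median 1.11) and from 1.002 to 2.77 in Per3-/- mice (median 1.26), and in the eye from 0.90 to 1.48 in WT mice (median 1.17) and from -0.08 to 1.67 in Per3-/- mice (median 0.95). The groups overlapped throughout, and the difference of eye minus hypothalamus of -0.33 ± 0.17 was not called (adjusted p = 0.071). Egr2 ran in the hypothalamus from -4.16 to -3.15 in WT mice (median -3.78) and from -4.33 to -0.55 in Per3-/- mice (median -3.44), and in the eye from -3.45 to -2.80 in WT mice (median -2.97) and from -3.44 to -2.24 in Per3-/- mice (median -2.84). One hypothalamus, that of Per3-/- mouse 7, lay above every eye, and the difference of 0.51 ± 0.24 (adjusted p = 0.0488) became 0.70 ± 0.14 without it (adjusted p = 7.5e-05). After quantile normalization the Egr2 difference was 0.04 (adjusted p = 0.86).

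Egr3 ran in the hypothalamus from -4.59 to -2.87 in WT mice (median -3.64) and from -5.17 to -0.95 in Per3-/- mice (median -3.12), a wider range than that of any other of these genes. In the eye it ran from -5.61 to -4.66 in WT mice (median -5.08) and from -5.75 to -4.87 in Per3-/- mice (median -5.16). All 14 mice were lower in the eye although the ranges met, and the difference was -1.75 ± 0.27 (adjusted p = 1.1e-06), but -2.39 after quantile normalization and -0.70 after normexp background correction. The second Egr3 probe was well above background on 6 of the 30 arrays and gives no direction.

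Nr4a1, a nuclear receptor that acts without a known ligand, ran in the hypothalamus from 2.04 to 2.75 in WT mice (median 2.34) and from 2.07 to 3.95 in Per3-/- mice (median 2.67). In the eye it ran from 2.88 to 3.46 in WT mice (median 3.18) and from 2.57 to 3.47 in Per3-/- mice (median 3.14). The eye was higher in 13 of 14 mice, by 0.57 ± 0.13 (adjusted p = 2.0e-04), with overlapping ranges. Npas4, a factor made mostly by neurons on calcium entry, ran in the hypothalamus from -5.66 to -4.29 in WT mice (median -5.10) and from -5.61 to -3.35 in Per3-/- mice (median -5.04). In the eye it ran from -5.46 to -4.47 in WT mice (median -5.05) and from -5.55 to -4.95 in Per3-/- mice (median -5.45). The tissues overlapped and the difference of -0.18 ± 0.17 was not called (adjusted p = 0.33), whereas after quantile normalization it was -0.89 (adjusted p = 5.6e-06) and after normexp background correction 0.13 (adjusted p = 0.48).

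Arc ran in the hypothalamus from 0.80 to 1.41 in WT mice (median 1.08) and from 0.78 to 2.54 in Per3-/- mice (median 1.13), and in the eye from -1.73 to -1.26 in WT mice (median -1.49) and from -1.61 to -0.87 in Per3-/- mice (median -1.37). No eye reached the lowest hypothalamus, and all 14 mice were lower in the eye, by 2.67 ± 0.13 (adjusted p = 4.2e-18). For Arc and Junb alike, the share of all probes whose tissues did not overlap was not computed. Fewer cells that express a gene and less of its RNA per cell cannot be told apart in whole tissue, and tissue and slide cannot be told apart either, since the tissues were run on separate slides. The median over all probes was 0.19 for eye minus hypothalamus, -0.071 after quantile normalization and 0.37 after normexp, so differences of that size depend on the scaling, and those of Junb, Arc, Egr3, Nr4a1, Fos and Jun kept their direction and their call under all 3, Egr3 with the change in size given above.

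**Figure D1:**
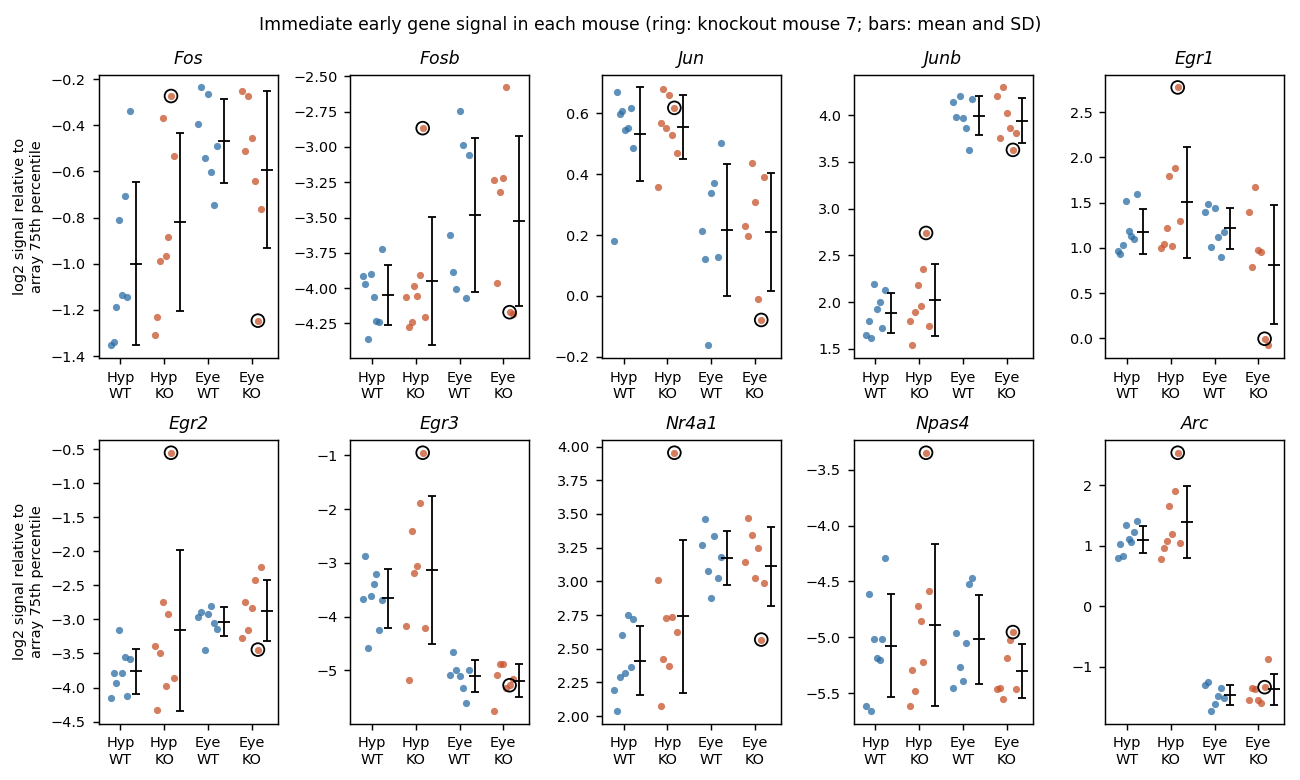
Level of each of the 10 genes in every mouse, as log2 intensity relative to the array's 75th percentile (y axis), for hypothalamus and eye of WT and knockout (Per3-/-) mice, with 1 point per mouse, bars for mean and SD, and a ring around knockout mouse 7. Junb and Arc separate the tissues completely, and the share of all probes that do so was not computed. The hypothalamus of knockout mouse 7 is the highest of 16 for every gene but Jun.

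**Figure D2:**
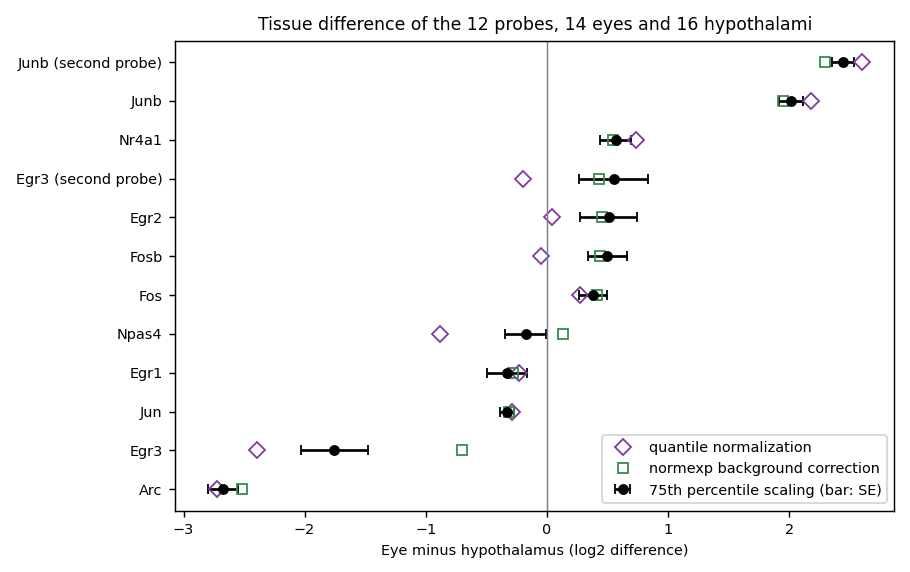
Difference of eye minus hypothalamus (log2, x axis) for the 12 probes, with the 75th percentile scaling as filled points with bars of 1 SE, quantile normalization as diamonds and normexp background correction as squares. Junb lies near 2.01 and Arc near -2.67 however the arrays were scaled, while Fosb, Egr2 and Npas4 move across or towards 0 and the reported Egr3 probe runs from -2.39 to -0.70.

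The comparison of genotypes asks whether loss of Per3 changed these genes at the one time sampled. In neither tissue was any of the 12 probes called, beside 0.0413% of all probes in the hypothalamus (17 of 41174) and 0.0194% in the eye (8 of 41174), and none had an unadjusted p under 0.05 in limma, where 1161 and 743 of all probes did. The methods' t-test called 14 and 7 of all probes and none of these 12. WT and Per3-/- ranges overlapped for each of the 12 probes in both tissues. The share of all probes with overlapping ranges was not computed.

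In the hypothalamus all 12 probes had a higher mean in Per3-/- mice, by 0.02 to 0.60, with a median of 0.21 beside -0.013 over all probes (limma, adjusted p from 0.991 to 0.992). The difference was 0.60 ± 0.41 for Egr2, 0.52 ± 0.50 for Egr3, 0.33 ± 0.21 for Nr4a1, 0.32 ± 0.22 for Egr1 and 0.29 ± 0.21 for Arc. The lowest p of an exact permutation test over the mice, 2-sided, was 0.144, for Nr4a1. Fos differed by 0.18 ± 0.18, Npas4 by 0.19 ± 0.29, Junb by 0.15 ± 0.15, Fosb by 0.10 ± 0.17 and Jun by 0.02 ± 0.067. Every one of these differences is within 2 standard errors of 0. Without Per3-/- mouse 7 they ran from -0.05 to 0.22 with a median of 0.12, and 10 of the 12 probes were still higher in Per3-/- mice.

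In the eye 10 of the 12 probes had a lower mean in Per3-/- mice, with a median of -0.049 beside 0.0047 over all probes. Egr1 was lower by 0.40 ± 0.25, with 2 Per3-/- eyes, those of mice 7 and 8, near 0 and all others at 0.79 or above, and its exact permutation p was 0.167. Npas4 was lower by 0.28 ± 0.17 (exact permutation p = 0.147) but higher by 0.20 after normexp, and Fos was lower by 0.12 ± 0.14, whereas Egr2 was higher by 0.16 ± 0.18 and Arc by 0.09 ± 0.11. The remaining 5 genes lay between -0.08 and -0.01 on their reported probes, of which Egr3 was 0.32 and Fosb 0.095 after normexp. The median over all probes was 0.17 after normexp, so a change of sign there goes with a shift of the whole array. Without mouse 7, 6 probes were higher and 6 lower. These eyes and hypothalami come from the same mice, and genes within a tissue vary together, so the number of probes on one side of 0 is not a count of independent results.

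The genotype difference itself did not differ between the tissues for any probe by limma, beside 0.00486% of all probes (2 of 41174). Egr1 had the lowest unadjusted p of the 12, 0.038 (adjusted p = 0.99994), for a difference of -0.73 ± 0.34 between the eye effect and the hypothalamus effect. Without mouse 7 it was -0.54 (unadjusted p = 0.070).

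**Figure D3:**
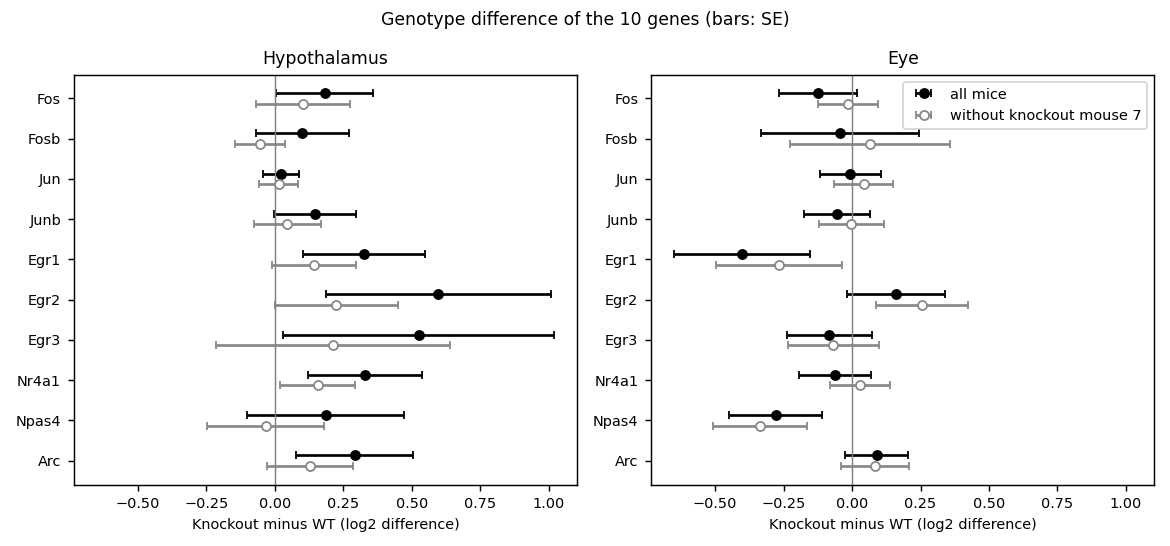
Difference of knockout (Per3-/-) minus WT for each gene (log2, x axis) in hypothalamus and eye, with bars of 1 SE, for all mice (filled) and without knockout mouse 7 (open). Leaving out that mouse moves all 10 hypothalamic differences towards or past 0.

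The hypothalamus of Per3-/- mouse 7 had the highest level of all 16 for 9 of the 10 genes. Its Egr2 was 9.37-fold above the median of the other 15 hypothalami, its Egr3 6.32-fold, its Npas4 3.57-fold and its Egr1 3.13-fold. Nr4a1 was 2.89-fold, Arc 2.74-fold, Fosb 2.29-fold, Junb 1.79-fold and Fos 1.64-fold above that median. Jun, at 1.05-fold, was within the range of the others. In the eye matched to that mouse by replicate number the pattern did not recur. Fos (-1.25) and Nr4a1 (2.57) were the lowest of the 14 eyes and the other 8 genes were within the range of the others.

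Markers of the olfactory bulb, a list written after these arrays had been seen, moved with these genes in that sample. All 9 were above every other hypothalamus, and their summed linear level was 29.6 times the 75th percentile against 1.64 to 3.38 in the others. Doc2g, expressed in mitral and tufted cells, was 3.59 against -2.94 to -1.74, Cdhr1 was 2.76 against -2.94 to -2.42, and Tbx21, a transcription factor of the same cells, was 0.18 against -5.28 to -4.69. Of 12 markers of the cerebral cortex 3 were above and 2 below the range of the others, with a summed level of 13.2 against 4.16 to 11.97. Of 17 hypothalamic markers 3 were above and 5 below, with a sum of 150.3 against 157 to 590. The 590 was that of Per3-/- mouse 1, and WT mice ran from 177 to 207. Of 10 markers of the striatum 1 was above and 4 below, with a sum of 42.9 against 27.5 to 45.4. Without mouse 7, and with genotype means removed, 3 of 8 olfactory bulb markers had r above 0.5 with the mean of the 10 genes (median 0.17). Among these markers Doc2g gave 0.84 and Cdhr1 0.05. So did 6 of 10 cortical markers (median 0.55) and 0 of 15 hypothalamic markers (median -0.26), beside 13.3% of all probes. The part of these markers in the levels of the immediate early genes was not tested.

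**Figure D4:**
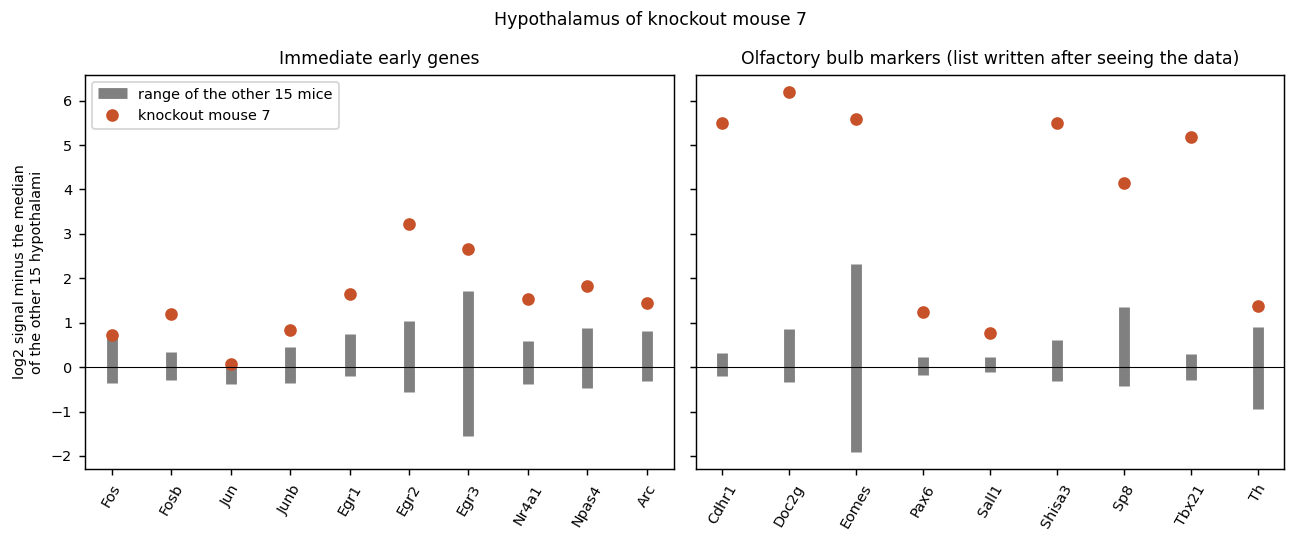
Hypothalamus of knockout (Per3-/-) mouse 7 (points) and the range of the other 15 hypothalami (bars), as log2 signal minus the median of those 15 (y axis), for the immediate early genes (left) and olfactory bulb markers (right). In it 9 of the 10 immediate early genes and all 9 olfactory bulb markers lie above the range of the other 15.

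These genes varied among mice of one genotype more than most probes on the array in the hypothalamus. The SD within genotype was 1.05 for Egr3, 0.87 for Egr2, 0.60 for Npas4, 0.47 for Egr1, 0.45 for Arc and 0.44 for Nr4a1. These lay at the 99.8, 99.6, 98.8, 97.3, 96.9 and 96.7 percentiles of the 27151 probes well above background on every hypothalamus array, whose median SD was 0.13. Fos (0.37), Fosb (0.36) and Junb (0.31) were at the 94.7, 94.0 and 91.4 percentiles. Jun alone, at 0.13, was at the middle of the array.

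Without mouse 7 the SD was still 0.87 for Egr3 (percentile 99.7), 0.46 for Egr2 (97.4), 0.43 for Npas4 (97.0) and 0.35 for Fos (94.4), while Fosb fell to 0.18 (73.6). In the eye only Fosb (0.57, percentile 93.9) and Egr1 (0.49, percentile 90.8) were above the 90 percentile, and the median SD of all probes was 0.18. Fos, Jun and Egr2 are each spotted 10 times per array, and the SD between those spots, which leaves out labelling, hybridization and slide, had a median of 0.058, 0.042 and 0.081 in the hypothalamus and of 0.063, 0.058 and 0.087 in the eye.

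Across the 16 hypothalami these genes were high and low in the same mice, apart from Jun. After the genotype means were removed, the median Pearson r over the 45 pairs was 0.72, beside 0.007 over all pairs of probes. Of the 45 pairs 43 were positive, 35 were above 0.5 and 13 above 0.8. The share of all probe pairs above these levels was not computed. Jun stood outside: the 9 pairs with Jun had a median of 0.16 (-0.04 to 0.30). The 36 pairs without it had a median of 0.75, all positive, 35 of them above 0.5 and 13 above 0.8. Jun was set apart for its correlations in these same data, which favours the 36 pairs. Without mouse 7 the 36 pairs were still all positive, with a median of 0.55, 21 above 0.5 and 4 above 0.8. With slide means removed as well as mouse 7, 35 of 36 were positive with a median of 0.56. In WT mice alone, which do not include mouse 7, the median of the 36 was 0.58 and 34 were positive. Some markers of the cerebral cortex and olfactory bulb followed these genes too, as given above, and their part in these correlations was not tested.

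Egr1 and Arc were the closest pair (r = 0.957, Spearman's rho = 0.903, permutation p = 4e-05, n = 16), and r was 0.866 without the 2 mice farthest from the median of Egr1 and 0.906 without mouse 7. Junb followed both, with r = 0.924 for Arc (rho = 0.900, permutation p = 4e-05, 0.805 without the 2 farthest) and r = 0.912 for Egr1 (rho = 0.782, permutation p = 8e-05, 0.783 without the 2 farthest). Fos and Egr1 gave r = 0.747 (rho = 0.832, permutation p = 5.8e-04, 0.672 without the 2 farthest), and 0.732 without mouse 7. These relations did not rest on the extreme mice.

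Others did. Egr2 and Npas4 gave r = 0.686 (rho = 0.391, permutation p = 0.034) and 0.041 without the 2 mice farthest from the median of Egr2, so this relation rests on those mice. Fos and Npas4 depended less on extreme mice, with r = 0.727 (rho = 0.700, permutation p = 0.0015). It was 0.535 without the 2 mice farthest from the median of Fos and 0.676 without mouse 7. A total of 90 pairs were computed over both tissues, and the p-values of named pairs are not adjusted.

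In the 14 eyes most pairs were only weakly correlated. The median r over the 45 pairs was 0.17, beside 0.009 over all pairs of probes, 29 pairs were positive and 6 were above 0.5. Fos and Egr1 stayed close, with r = 0.871 (rho = 0.947, permutation p = 1.5e-04, n = 14), 0.856 without the 2 mice farthest from the median of Fos, 0.849 without mouse 7 and 0.720 with slide means removed. Fos and Junb gave r = 0.720 (rho = 0.684, permutation p = 0.0053, 0.727 without the 2 farthest) and Junb and Egr1 r = 0.704 (rho = 0.662, permutation p = 0.0084, 0.612 without the 2 farthest). Each of the 6 eye pairs above 0.5 was also above 0.5 in the hypothalamus, but there 35 of the 45 pairs were, so this overlap says little. Without mouse 7, 4 eye pairs were above 0.5. With slide means removed the order in the eye changed, Fosb and Egr1 (0.785), Egr2 and Arc (0.773) and Fos and Jun (0.759) lying above Fos and Junb (0.558) and Junb and Egr1 (0.541).

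Fosb and Arc ran in opposite directions in the eye, with r = -0.591 (rho = -0.600, permutation p = 0.033, -0.479 without the 2 farthest), and -0.387 with slide means removed. Fos and Npas4, positively related in the hypothalamus, gave r = -0.521 (rho = -0.380, permutation p = 0.030) in the eye and -0.02 with slide means removed. Fos and Nr4a1, positively related in both tissues, gave r = 0.617 in the eye (rho = 0.499, permutation p = 0.045), 0.055 without the 2 farthest mice. Whether any pair's correlation differed between the tissues was not tested.

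**Figure D5:**
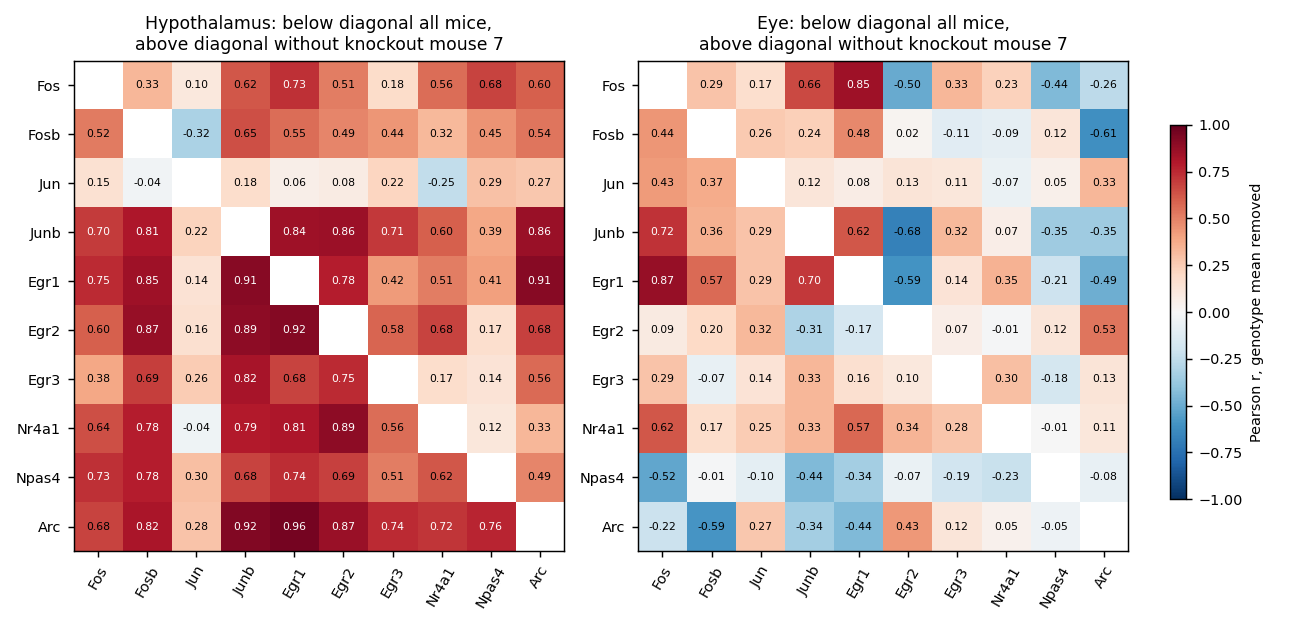
Pearson r for each pair of the 10 genes across mice with genotype means removed, in the hypothalamus (left, 16 mice) and the eye (right, 14 mice), with all mice below the diagonal and without knockout mouse 7 above it. In the hypothalamus all 36 pairs without Jun and 7 of the 9 with Jun are positive both with and without that mouse. In the eye 6 of the 45 pairs are above 0.5 with all mice.

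Slides took a large share of the variation of Fos. Between slides lay 57.9% of the within-genotype variance of Fos in the hypothalamus and 53.6% in the eye, beside a median of 27.7% and 33.9% over all probes. Mean Fos on slides 1 to 4 was -1.31, -0.84, -0.92 and -0.57 in the hypothalamus and -0.32, -0.39, -0.49 and -0.81 in the eye. Npas4 had 48.2% and 49.8% between slides, and in the eye Fosb had 61.9% and Egr1 55.5%. Each slide held both genotypes, and a slide effect and differences among the mice placed on a slide cannot be told apart.

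A fit of every probe on Fos, genotype means removed, asks which genes of the array followed it. In the hypothalamus Egr1 (slope 0.94 ± 0.22 per unit of Fos, limma, adjusted p = 0.031) and Npas4 (1.19 ± 0.30, adjusted p = 0.038) were called on their reported probes, that is 2 of the other 9 genes beside 4.44% of all probes. Junb (0.59 ± 0.16, adjusted p = 0.051) and Arc (0.82 ± 0.23, adjusted p = 0.060) lay just outside, and Jun had the lowest slope, 0.05 ± 0.098. None was called without mouse 7 (Egr1 0.057, Npas4 0.091), without WT mouse 8, without Per3-/- mouse 2 or with slide as a block (Egr1 0.65 ± 0.17 per unit without mouse 7, and 0.93 ± 0.38 with the block). In the eye none was called, beside 0.0219% of all probes by limma (9 of 41173, with 7536 at an unadjusted p under 0.05), and Egr1 had a slope of 1.56 ± 0.26 (adjusted p = 0.091).

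Levels in eyes and hypothalami matched by genotype and replicate number showed no common order. Over the 14 mice with both tissues the median r of the 10 genes between eye and hypothalamus was -0.26, beside 0.055 over all probes, and 0.095 beside 0.059 without mouse 7. Fos gave r = -0.477 (rho = -0.481, permutation p = 0.097), -0.315 without the 2 farthest mice and -0.10 with slide means removed. Npas4 gave the only p under 0.05 of the 10 relations computed, r = 0.511 (rho = 0.288, permutation p = 0.041), with 0.090 without the 2 farthest mice and -0.04 with slide means removed, so it rests on those mice. Nr4a1 moved from -0.538 to 0.12, Egr2 from -0.467 to -0.06 and Egr1 from -0.369 to 0.07 when mouse 7 was left out.

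The genes whose hypothalamic pattern was most like the mean of the 10 were ranked over 27140 probes and 16 mice. They were Hapln1, a link protein of the extracellular matrix around neurons (r = 0.963), Ckb, brain creatine kinase (0.928), Ski (0.928), Eepd1 (0.921), Zfp385b (0.919), Zeb2 (0.917), Sp8 (0.916), Desi2 (0.913), Sall1 (0.912) and Usp46 (0.907). Sp8 and Sall1 are on the olfactory bulb list above. Without mouse 7 these 10 gave 0.731 to 0.908, and of them only Hapln1 stayed among the first 10, behind Gdf5 (0.909), and the other 9 names changed. In the eye, over 27873 probes and 14 mice, the nearest were Itgb7 (0.875), Mylip (0.859), Rab11fip1 (0.850), Krt80 (0.843) and Ankk1 (0.835), followed by D16Ertd472e, Fbxo34, Sdcbp2, Cysrt1 and Cnksr3 down to 0.812. Without mouse 7 only Rab11fip1 of these stayed among the first 10. No gene was on both lists of 10.

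Other genes of the pathway were taken from 3 lists. Of 47 other rapid response genes none was called between genotypes in either tissue, 34 were higher in Per3-/- hypothalamus (median 0.053) and 30 in Per3-/- eye (median 0.024). In the hypothalamus the differences of highest absolute value were Egr4 (0.60 ± 0.36), a zinc finger factor of the Egr family, Cebpd (0.50 ± 0.16), Ptgs2 (0.49 ± 0.47), the inducible cyclooxygenase, and Fosl2 (0.35 ± 0.20), an AP-1 subunit. In the eye they were Egr4 (-0.40 ± 0.25), Zfp36 (0.23 ± 0.11), Nfil3 (0.23 ± 0.096) and the clock gene Per2 (-0.22 ± 0.15).

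Egr4 had a positive correlation with the mean of the 10 genes in both tissues, with r = 0.74 in the hypothalamus (0.76 without mouse 7) and 0.51 in the eye (0.44 without mouse 7). Of the 43 rapid response genes well above background in the hypothalamus 9 had r above 0.5 with the mean of the 10, beside 12.1% of all probes, and 4 without mouse 7, beside 13.3%. Ier5 (0.74) fell to 0.28 and Fosl2 (0.79) to 0.31 without it. In the eye 11 of 45 had r above 0.5, beside 3.57% of all probes, and 5 without mouse 7, beside 3.20%. Zfp36, which destabilises short-lived transcripts, gave 0.79 (0.70 without mouse 7), the kinase Sik1 0.74 (0.51), the clock gene Per1 0.65 (0.55) and Fosl2 0.64 (0.66). Between the tissues 36 of the 47 were called higher in the eye and 8 higher in the hypothalamus, beside the 47.9% and 35.2% of all probes given above, and after quantile normalization 35 and 8.

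Of 16 delayed activity-dependent genes none was called between genotypes, with medians of 0.012 in the hypothalamus and 0.010 in the eye. Inhba (0.28 ± 0.25), Pdyn (-0.24 ± 0.076), Rgs4 (-0.22 ± 0.089) and Timp1 (0.20 ± 0.11) had the differences of highest absolute value in the hypothalamus, and Plat (0.18 ± 0.097), Inhba (-0.09 ± 0.084), Scg2 (0.07 ± 0.091) and Pcsk1 (0.06 ± 0.12) in the eye. Between the tissues 12 of the 16 were called higher in the hypothalamus and 4 in the eye, with the same counts after quantile normalization, beside 35.2% and 47.9% of all probes. Of 36 upstream signalling and promoter-binding factors none was called between genotypes, with medians of -0.0032 and -0.0094. The differences of highest absolute value were Elk3 (0.19 ± 0.058), the neuropeptide gene Adcyap1 (-0.16 ± 0.10), Camk4 (-0.11 ± 0.060) and Ep300 (-0.10 ± 0.068) in the hypothalamus and Elk4 (-0.34 ± 0.15), Camk2a (-0.27 ± 0.18), Mef2c (0.21 ± 0.16) and Adcyap1r1 (-0.19 ± 0.10) in the eye. Of the 34 well above background in the hypothalamus 8 had r above 0.5 with the mean of the 10 genes and 2 below -0.5, beside 12.1% of all probes above 0.5, and without mouse 7 they were 5 and 1, beside 13.3%. Among them were Mef2c (0.89, and 0.65 without mouse 7), Camk2b (0.87 and 0.68) and Adcyap1 (-0.76 and -0.77), named after their values were seen.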

How the data were processed

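Gene expression was measured in hypothalamus and whole eye with 1 single-colour Agilent mouse array per mouse and tissue, 30 arrays in all and none pooled. The authors extracted spot intensity with Agilent Feature Extraction, and the deposited processed intensity is background-subtracted and detrended within the array but not normalized between arrays. The other marks per spot that the authors deposited, for uneven, outlying, saturated or well above background spots, come from the same software. The authors also deposited log2 values that follow the processed signals, which served as an alternative.

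Each value is the log2 of a processed intensity divided by the 75th percentile of its array. Between 36 and 91 spots per array, those that carry the mark for uneven or outlying spots, were left out, and spots of one probe were averaged. All probes with the 10 gene names in the hypothalamus files were taken, and eye probes were matched by probe name. For a gene with several probes the one with the highest mean was reported. Each fit ran over all 41174 non-control probes in limma 3.58.1 (R 4.3.3) with Benjamini-Hochberg adjustment, within a tissue for genotype and between tissues with a random term for the mouse (correlation 0.059). Pair correlations used deviations from the genotype mean, with permutation of mice within genotype (100000 resamples). Single genes were tested by an exact permutation test. The scripts were tested on simulated data.

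P-values measure the spread between these mice, whose number limits the precision. Alternatives were quantile normalization, normexp background correction (offset 50), a filter on dim probes, slide and replicate number as blocks, the methods' t-test, the deposited values, all spots kept, and each mouse left out. The genes, lists and tests were chosen with earlier results of these data known, and the settings without Per3-/- mouse 7 beyond leaving out each mouse, and the olfactory bulb list, after seeing the data. Named genes were all members, up to 4 genes per list and tissue with the largest genotype difference, and the 10 genes per tissue most like the members' mean. Genes of a list named for their correlation were chosen after their values were seen.

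Marker lists of choroid plexus, meninges and vessels, blood, striatum, pituitary and the tissues named above had no probe called between genotypes in either tissue. In the hypothalamus of Per3-/- mouse 7 the range of the other mice was passed upwards by 1 of 10 markers of choroid plexus, 2 of 12 of meninges and vessels, 5 of 9 of blood and 0 of 10 of pituitary.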

Additional observations from a re-analysis of the deposited data

Results flagged for a closer look

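In 40 groups of 7 or 8 mice, 10 genes in 2 tissues and 2 genotypes, the gap between an extreme mouse and its nearest neighbour was compared with the range of the group, and 5 groups passed Dixon's 95% critical value (0.568 for 7 mice and 0.526 for 8). Chance gives about 1 in 20 groups where groups are independent and values normally distributed. These genes vary together, and the share of all probes passing the same rule was not computed, so no excess over chance is read from the 5. Of the 5 groups 3 concern the hypothalamus of Per3-/- mouse 7. Fosb there was -2.87 with the nearest other Per3-/- mouse at -3.91, a gap of 0.742 of the range. Egr2 was -0.55 with the nearest at -2.75 (0.581), and Npas4 was -3.35 with the nearest at -4.58 (0.545). The olfactory bulb markers of the same sample are given above, and their part in these values was not tested.

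Jun in the hypothalamus of WT mouse 1 was 0.18 with the nearest WT mouse at 0.48 (0.622), the lowest of the 16 hypothalami. Arc in the eye of Per3-/- mouse 8 was -0.87 with the nearest at -1.34 (0.635).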

How the results depend on the processing

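The counts of 0 genotype calls in either tissue and of 0 differences between tissues held in every alternative run. Calls between eye and hypothalamus were 9 of 12, 8 with quantile normalization and 10 with normexp. The 2 calls with Fos in the hypothalamus became 1 with quantile normalization, 0 with normexp, 4 with the filter on dim probes, 0 with slide as a block and 0 with slide as a block and mouse 7 left out, and 0 to 4 when each mouse was left out (0 without Per3-/- mouse 2, Per3-/- mouse 7 or WT mouse 8, and 4 without Per3-/- mouse 6). In the eye it was 0 to 1 (1 without Per3-/- mouse 8). The median pair correlation in the hypothalamus was 0.48 in WT mice alone and 0.49 to 0.75 with each mouse left out, the lowest without mouse 7, and the median between eye and hypothalamus went from -0.26 to 0.095 without mouse 7. The causes were not tested. Some genotype differences, none of them called, changed sign. In the hypothalamus, with each mouse left out, Fosb ran from -0.054 to 0.15, Jun from -0.028 to 0.050 and Npas4 from -0.034 to 0.30. In the eye Egr3 ran from -0.17 to 0.010, Fosb from -0.20 to 0.081, Jun from -0.069 to 0.042 and Nr4a1 from -0.12 to 0.027. There normexp gave 0.32 for Egr3, 0.095 for Fosb and 0.20 for Npas4, beside a median of 0.17 over all probes. With the replicate block Egr3 in the eye was 0.016, calls over all probes were 5 in the hypothalamus (17 without the block) and 1 in the eye (8 without it), and no gene described here was called. Same-numbered mice were not shown to be paired (r of their deviations above 0.1 in 4 of 8 hypothalamic pairs and 5 of 6 eye pairs). With normexp, calls over all probes were 10 and 4. Over all probes, those called with Fos in the hypothalamus went from 1828 to 2 with slide as a block, 341 with normexp and 0 without WT mouse 8. The second Egr3 probe is limited by its signal over background.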
